A study of Mus musculus with 24 samples.

Results

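A pair of wild-type (WT) mouse embryonic stem cell lines was compared before any induction: the line titled WT pLV2 2 (line 2) against the line titled WT pLV2 1 (line 1). The members are the 4 libraries whose titles carry these names without DOX, 2 for each line, out of 24 libraries in the series. All of them are KH2 embryonic stem cells whose titles carry TRE_DUX, the doxycycline-inducible copy of the transcription factor DUX, and all 4 are labelled as WT and untreated. No label explains pLV2, and the number after it is read here as a line number. They also do not say whether a line is 1 clone, or whether replicates are separate cultures, so the p-values measure only the spread between these samples, which may be technical. Further groups served as references: both lines after 16 h of doxycycline (DOX), the lines labelled TRIM24-KO and TRIM33-KO that also carry pLV2 in their titles (named here by these labels, although Trim24 RNA was present in the former), and the WT and DUXBL-KO lines without pLV2 (the first of these is called plain WT here), each in 2 libraries. The titles were followed for DOX: the 4 libraries of these lines titled with DOX carry the treatment tag None, and the TRIM24-KO and TRIM33-KO libraries titled without it carry the tag DOX. Growth was in serum and LIF on gelatin or on mouse feeder cells, with no label saying which was used for which library. RNA was depleted of rRNA and sequenced with a strand-specific kit.

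Embryonic stem cells keep the pluripotency network of the early epiblast active through factors such as OCT4 (Pou5f1), SOX2 and NANOG. A set of imprinted genes is read from the maternal or the paternal chromosome alone, according to DNA methylation laid down in the germ line and then kept through cell division, and such marks are known to vary between cultured pluripotent lines. The Dlk1-Dio3 domain is one of these: its maternal chromosome makes the long noncoding RNAs Meg3, Rian and Mirg and many small RNAs, and its paternal chromosome makes the coding genes Dlk1, Rtl1 and Dio3.

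The largest differences with a mean of at least 5 CPM (counts scaled to the library size) sat at imprinted genes and at a few single genes that were near 0 in one of the lines. Sequences of 250 bases before an annotated start are shown for the 3 genes that stand for these patterns: Meg3 at the Dlk1-Dio3 domain and Mest on chromosome 6, both near 0 in line 1, and Nod1 on chromosome 6, near 0 in line 2. They come from the RefSeq promoter table of GRCm38.p6, are written 5′ to 3′ on the gene's own strand, and overlap no annotated exon. Capitals mark each CG dinucleotide, the main site of DNA methylation in mammals.
Meg3, plus strand, chr12:109540746-109540995: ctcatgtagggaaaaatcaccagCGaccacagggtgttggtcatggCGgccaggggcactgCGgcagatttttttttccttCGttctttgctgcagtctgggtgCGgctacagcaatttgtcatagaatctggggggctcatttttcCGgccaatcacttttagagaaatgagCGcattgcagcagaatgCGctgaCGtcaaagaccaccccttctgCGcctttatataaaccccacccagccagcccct
Mest, plus strand, chr6:30737800-30738049: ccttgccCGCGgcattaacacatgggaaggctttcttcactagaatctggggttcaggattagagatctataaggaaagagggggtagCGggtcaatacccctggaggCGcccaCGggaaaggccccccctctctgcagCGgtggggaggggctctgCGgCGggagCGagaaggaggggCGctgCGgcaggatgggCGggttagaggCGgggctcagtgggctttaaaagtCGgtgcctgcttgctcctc
Nod1, minus strand, chr6:54972613-54972862: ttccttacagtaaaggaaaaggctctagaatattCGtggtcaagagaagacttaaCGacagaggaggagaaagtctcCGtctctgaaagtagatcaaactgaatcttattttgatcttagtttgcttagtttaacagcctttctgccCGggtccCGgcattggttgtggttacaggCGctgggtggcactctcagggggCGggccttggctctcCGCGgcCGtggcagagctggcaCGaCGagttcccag
The motif searched was CG, which reads the same on both strands. The Meg3 window holds 10 of them, the Mest window 14 and the Nod1 window 12. Windows at other listed starts hold 0 for Meg3, 7 and 14 for Mest and 4 for Nod1. The Mest window shown is not at its first listed start. Over the first listed start of 27018 genes the median was 6 in 250 bases, and 38.2% of these windows held at least 10, 29.6% at least 14 and 33.8% at least 12. A count of CG is a description of the letters; DNA methylation was not measured here. Of 9 genes looked up, 7 had an entry; Peg10 and Sgce had none.

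Gene counts of the 4 libraries ranged from 13657694 to 17763800, and repeat subfamilies took 7.58% to 8.09% of all counts. Mitochondrially encoded genes took 12.03% and 11.5% of gene counts in line 1 and 9.45% and 10.8% in line 2; their part in the differences was not tested. The libraries of each line resembled each other more than those of the other line: over 10919 genes the median absolute difference in log2 CPM was 0.07 between the line 1 replicates, 0.12 between the line 2 replicates and 0.26 to 0.31 between the lines. Line 2 lay closer to TRIM33-KO without DOX (0.09 to 0.15) than to line 1, and line 1 lay 0.23 to 0.25 from TRIM24-KO. No replicate pair was identical within sampling noise (chi-square per degree of freedom 3.27 in line 1 and 9.09 in line 2).

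Of 18079 genes tested with edgeR's quasi-likelihood test, 6886 (38.1%) differed between the lines at a Benjamini-Hochberg adjusted p under 0.05. In line 2, 3413 (18.9%) were higher and 3473 (19.2%) lower. A difference of at least 1 on the log2 scale was called for 1746 genes (9.66%), 1013 higher and 733 lower. Scaling the libraries only on genes off chromosomes 1, 6, 8 and 11, an alternative chosen after seeing the data, gave 4137 higher and 2721 lower genes, a share of 60.3% higher against 49.6%. Longer and more abundant genes were called more often, from 21.05% of the shortest 3611 by exonic length to 49.99% of the longest 3611, and from 12.1% of the lowest 3616 by level to 58.4% of the highest 3616. These shares are the background for each list that follows.

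Position on the chromosomes divided the differences. Genes of chromosomes 1, 6, 8 and 11 were mostly higher in line 2, with median log2 fold changes of 0.43, 0.30, 0.30 and 0.40, while the medians of the other autosomes lay between -0.20 and -0.02 and that of the X chromosome was 0.14. On those 4 chromosomes, which were picked after their medians were seen, 1888 of 4281 tested genes (44.1%) rose and 244 (5.70%) fell. Elsewhere 1525 of 13798 (11.1%) rose and 3229 (23.4%) fell, around a median of -0.09. These directions are relative to a scaling that puts the median of all genes at 0.00. With scaling on genes off those chromosomes, the median log2 fold changes of chromosome 1, chromosome 6, chromosome 8 and chromosome 11 were 0.50, 0.38, 0.38 and 0.48. The other autosomes then lay on both sides of 0, from -0.12 (median log2 fold change of chromosome 15) to 0.02 (median log2 fold change of chromosome 13), so the excess of lower calls there depends on the scaling. The same 4 chromosomes had medians of 0.44, 0.34, 0.33 and 0.40 between the same 2 lines with DOX, which are further libraries of these lines and no independent lines. Leaving out each of the 4 libraries in turn gave 0.34 to 0.54 for chromosome 1, 0.31 to 0.37 for chromosome 6, 0.22 to 0.40 for chromosome 8 and 0.41 to 0.44 for chromosome 11.

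**Figure D1:**
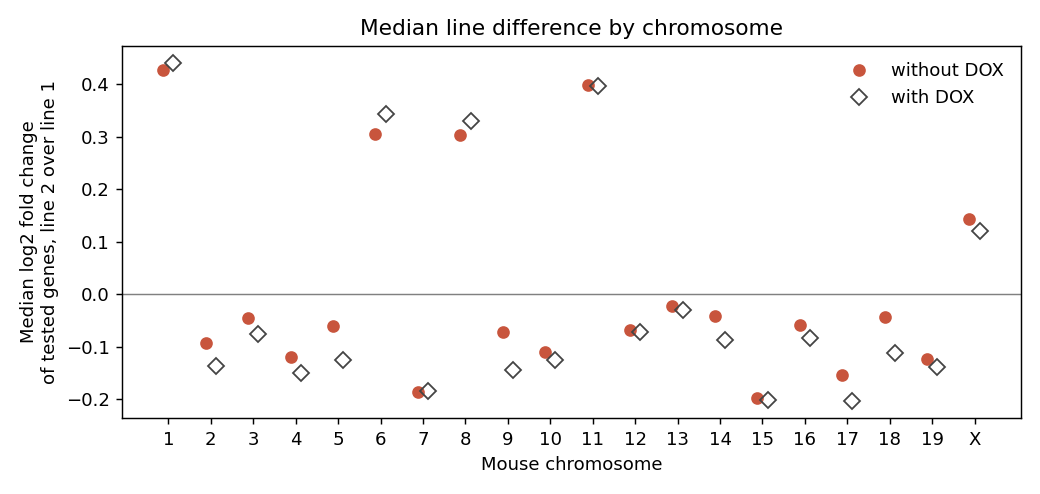
Median log2 fold change of the tested genes (vertical axis, line 2 over line 1) on each mouse chromosome (horizontal axis), without DOX (filled circles) and with DOX (open diamonds). Chromosomes 1, 6, 8 and 11 sit between 0.30 and 0.44, and the other autosomes sit below 0 in both, although several of them move to 0 or above with scaling on genes off chromosomes 1, 6, 8 and 11.

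Against the plain WT libraries, an added comparison of medians with no test, line 1 lay below line 2 on chromosomes 1, 8 and 11. Chromosome 1 stood at -0.02 and -0.01 in the line 1 libraries and at 0.50 and 0.31 in line 2. Chromosome 11 stood at -0.23 and -0.23 in line 1 and at 0.17 and 0.19 in line 2, and chromosome 8 at -0.12 and -0.16 against 0.24 and 0.06. The plain WT replicates themselves lay apart on chromosomes 8 and 11, so these values have a loose zero. Line 2 replicate 1 was the higher of its pair on chromosomes 1 and 8. The tables hold RNA counts and no DNA measurement, and what these levels come from was not tested.

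Chromosome 6 was not uniform. In its first 40 Mb, 136 of 166 tested genes rose in line 2 and none fell, with a median log2 fold change of 1.48, or 2.79-fold. From 40 to 60 Mb the median was 0.09 (24 higher and 16 lower of 102) and from 60 to 110 Mb it was -0.06 (23 higher and 42 lower of 239). It was 0.33 from 110 to 120 Mb (40 higher and 6 lower of 93) and 0.41 from there to the end (105 higher and 6 lower of 221). With DOX the same 5 stretches had medians of 1.38, -0.01, -0.10, 0.36 and 0.42. The bounds of these stretches coincide with steps in the 10 Mb medians of the same libraries, so their contrast is a description with no test.

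Set against plain WT, the first 40 Mb stood at -0.87 and -0.86 in the line 1 libraries and at 0.59 and 0.34 in line 2, so the lines lay on opposite sides of that reference. Both lines were low from 40 to 60 Mb, at -0.96 and -0.93 in line 1 and at -0.98 and -0.95 in line 2. From 110 to 120 Mb line 1 stood at -0.56 and -0.55 and line 2 at -0.08 and -0.22. Beyond 120 Mb line 1 stood at 0.01 and 0.01 and line 2 at 0.39 and 0.40. TRIM33-KO gave 0.57 and 0.51 over the first 40 Mb, and TRIM24-KO gave -0.05 and -0.17.

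**Figure D2:**
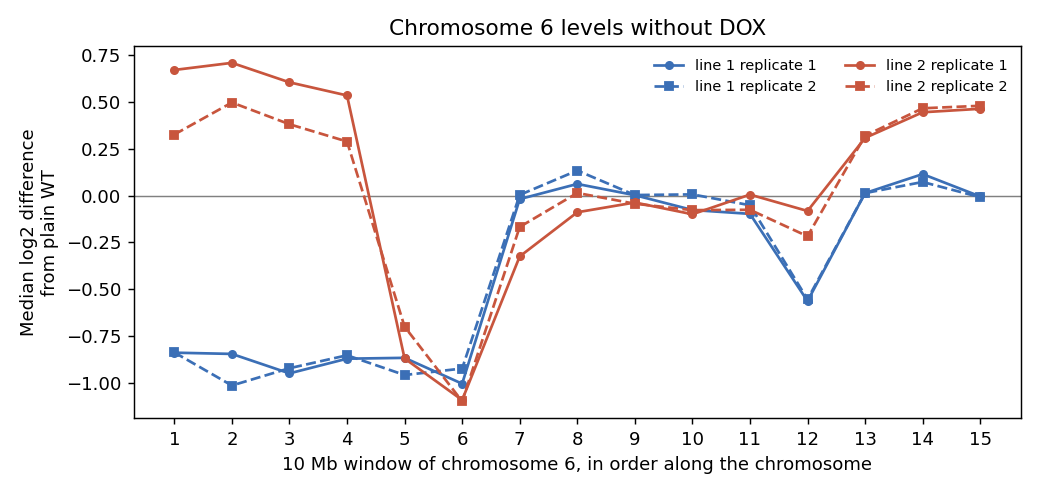
Median log2 difference from plain WT (vertical axis) in consecutive 10 Mb windows of chromosome 6 (horizontal axis) for the 4 libraries without DOX, line 1 in blue and line 2 in red. The lines are far apart in windows 1 to 4, together and low in windows 5 and 6, together near 0 from window 8 to 11, and apart again from window 12 on.

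Genes of the first 40 Mb with well-known roles were among those that rose. Met, the receptor for hepatocyte growth factor, had 1.44 and 1.29 CPM in line 1 and 17.2 and 15.2 CPM in line 2, a log2 fold change of 3.57 (standard error 0.19, adjusted p = 1.83e-09). Asns, the enzyme that makes asparagine, had 140.2 and 143 CPM in line 1 and 484 and 385 CPM in line 2 (log2 fold change 1.62, standard error 0.10). Trim24, a transcriptional cofactor and the target named in the TRIM24-KO label, had 100.4 and 94.7 CPM in line 1 and 196 and 166 CPM in line 2 (log2 fold change 0.89, adjusted p = 2.69e-06). Its plain WT levels were 171 and 158 CPM, and the uninduced libraries labelled TRIM24-KO had 137 and 123 CPM, above line 1. A count over the whole gene does not show whether a protein is made, so these counts do not check that label. Further along, Zyx, which codes for the focal adhesion protein zyxin, and Tcaf1 rose by 2.55 and 2.45 in the 40 to 60 Mb stretch, whose median was near 0.

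The imprinted genes Peg10, Sgce and Mest of chromosome 6 had larger fold changes than the median of their surroundings. Peg10, a retrotransposon-derived gene needed in the placenta and read from the paternal copy (chr6:4747306-4760517, plus strand), had 2.198 and 2.58 CPM in line 1 and 479.5 and 258 CPM in line 2. Its log2 fold change was 7.26 (standard error 0.35, adjusted p = 9.89e-10), and the groups did not overlap. Sgce, which codes for epsilon-sarcoglycan and starts beside Peg10 on the other strand, had 1 and 3 counts in line 1 and 161 and 85 in line 2, a ratio of 50.1 with a 95% counting interval of 19.3 to 185. All 8 other tested genes within 0.5 Mb of Peg10 rose too, by a median of 1.85 with Sgce included, against 7.26 for Peg10.

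Mest, a paternally read gene coding for a hydrolase-like protein of mesoderm (chr6:30723547-30748465, plus strand), had 0.41 and 1.35 CPM in line 1 and 147 and 93.8 CPM in line 2. That is a log2 fold change of 7.06 (standard error 0.36, adjusted p = 1.22e-09). Within 0.5 Mb, 7 of 8 other tested genes rose, with a median of 1.60; Copg2, whose end overlaps that of Mest on the other strand, rose by 1.61. Mest separated the lines of the series in another way than Peg10. It was also near 0 in TRIM24-KO (0.36 and 0.93 CPM) and DUXBL-KO (0.33 and 0.09), was 18.2 and 1.70 CPM in plain WT, and reached 133 CPM in both TRIM33-KO libraries. Peg10, by contrast, was low in line 1 alone of the uninduced groups: the others held 232 CPM or more.

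At the Dlk1-Dio3 domain on chromosome 12, the maternally read noncoding RNAs were nearly missing from line 1. Meg3 (chr12:109541001-109571726, plus strand) had 0.14 and 0.52 CPM in line 1 and 136 and 110.5 CPM in line 2, a log2 fold change of 8.502 (standard error 0.20, adjusted p = 4.52e-14). Rian had 0.41 and 1.10 CPM against 235 and 205 CPM (log2 fold change 8.15, standard error 0.18). Mirg, host of a microRNA cluster, had 1 and 1 counts against 512 and 297, a ratio of 330 with a counting interval of 91.0 to 2727. From Meg3 to Mirg all 10 tested genes rose, and their summed counts were 9 and 30 in line 1 against 9028 and 5971 in line 2. Of 83 annotated entries over that stretch, 7 had a count in line 1 and 71 in line 2.

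Among the coding genes of the domain, those tested were Dlk1 and Dio3, which differed in opposite directions. Dlk1, an inhibitory Notch ligand read from the paternal copy, had 0.48 and 0.90 CPM in line 1 and 3.83 and 3.01 CPM in line 2, and rose by 2.29 (standard error 0.34, adjusted p = 6.97e-05). Dio3, a thyroid hormone deiodinase, fell by 1.35 from 1.44 and 1.48 CPM to 0.58 and 0.55 CPM (standard error 0.43, adjusted p = 0.0191). Between the lines with DOX, Dio3 was not called (adjusted p = 0.834). In total 13 of the 15 tested genes from Dlk1 to Dio3 rose and 1 fell. With few reads in line 1, the fold changes depend on its libraries: without line 1 replicate 1 that of Meg3 was 7.91, and without line 1 replicate 2 those of Meg3, Rian and, on chromosome 6, Mest were 9.75, 9.06 and 8.19. Every other uninduced group held Meg3 at 104 to 142 CPM, so line 1 was the low group and line 2 resembled the rest. With DOX, line 1 had 0.99 and 0.91 CPM of Meg3 and line 2 had 116 and 107 CPM.

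Imprinted genes moved in both directions. Of 34 tested, those of the Dlk1-Dio3 domain and chromosome 6 included, 15 rose and 5 fell, and the median was 0.33, against 0.00 over all genes tested. The lower calls numbered 2 without line 1 replicate 1 or line 2 replicate 1 and with DESeq2, and 3 without line 1 replicate 2. Igf2, the paternally read growth factor, had 3.98 and 4.06 CPM in line 1 and 0.58 and 0.68 CPM in line 2, and fell by 2.67 (adjusted p = 4.15e-07). Grb10, an adaptor that restrains insulin and growth factor signalling, had 259 and 241 CPM in line 1, but 18.2 and 113 CPM in the line 2 replicates, and fell by 1.95 (standard error 0.59, adjusted p = 0.0149). That gap within line 2 was still there with DOX, at 12.9 and 83.3 CPM. Snrpn and Zdbf2, both paternally read, rose by 0.99 and 0.97.

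**Figure D3:**
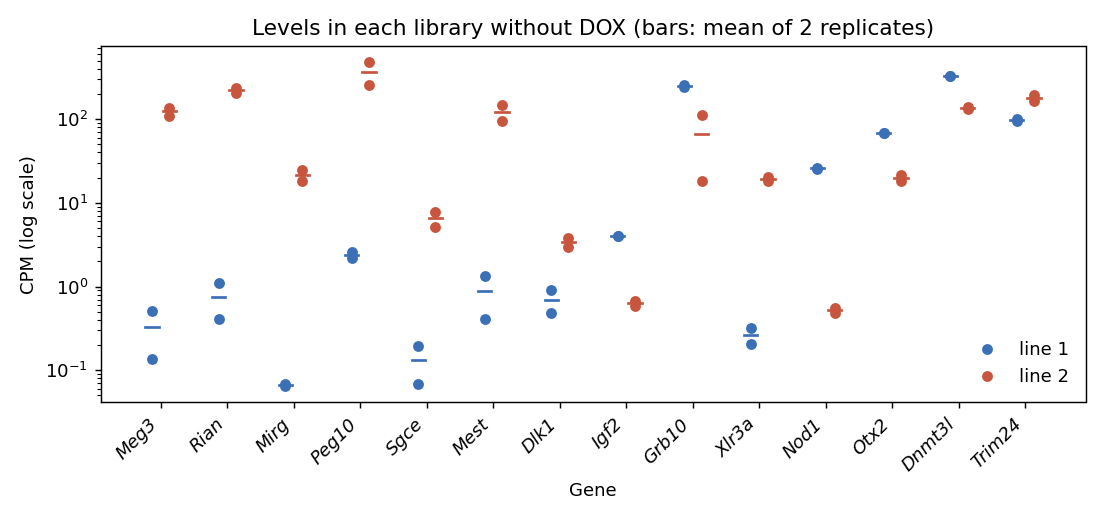
CPM (vertical axis, log scale) of 14 genes (horizontal axis) in each library without DOX; points are libraries, line 1 in blue and line 2 in red, and short bars are the mean of 2 replicates. Meg3, Rian, Mirg, Peg10, Sgce and Mest lie at or below 2.58 CPM in line 1 and at or above 5.22 CPM in line 2, and the order is turned round for Igf2, Grb10, Nod1, Otx2 and Dnmt3l.

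Nod1, a receptor for bacterial cell wall fragments (chr6:54923949-54972612, minus strand), showed the opposite state. It had 26.4 and 25.7 CPM in line 1 and 0.49 and 0.55 CPM in line 2, a log2 fold change of -5.64 (standard error 0.21, adjusted p = 3.75e-11). Its neighbours did not share this: of 9 tested genes within 0.5 Mb, 2 rose and 2 fell, with a median of 0.07, and the closest on either side, Znrf2 and Ggct, fell by 1.00 and 0.99. Nod1 was also low in TRIM33-KO (2.49 and 1.73 CPM) and DUXBL-KO (0.51 and 1.06), and stood at 20.5 to 36.4 CPM in plain WT and TRIM24-KO.

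Other single genes had a similar on or off form. Xlr3a, an X-linked gene of a lymphocyte-regulated family, had 0.21 and 0.32 CPM in line 1 and 18.2 and 20.4 CPM in line 2 (log2 fold change 6.14, standard error 0.28). Its relative Xlr4a had no count in line 1 and 79 and 77 counts in line 2, which is at least 21.4-fold higher when 3 counts per library are taken as the floor. These genes are near-identical copies, so the split of reads among them is uncertain. Hist1h2bq, a histone H2B gene, had no count in line 1 and 500 and 468 in line 2, at least 133-fold higher (adjusted p = 0.0309). The call was lost when any 1 of the 4 libraries was left out (adjusted p from 0.0579 to 0.130), and the plain WT replicates had 0 and 1070 counts. Reads of Hist1h2bq may be shared with other copies of the gene. How reads with several matches were counted is not given, so the value is uncertain.

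Among the remaining coding genes named by size, Calb2 (the calcium buffer calretinin), Trpa1 (a sensory ion channel) and Rims1 (a synaptic vesicle protein) rose by 4.34, 4.30 and 3.69. Elovl4, a very long chain fatty acid elongase, rose by 2.99, St8sia6, a sialyltransferase, by 2.997 and Map7d2, a microtubule-binding protein, by 2.73. Cdh2, the adhesion molecule N-cadherin, had 1.58 and 1.22 CPM in line 1 and 8.10 and 10.4 CPM in line 2, a rise of 2.71. In the other direction Megf11, a cell surface receptor, had 12.9 and 13.3 CPM in line 1 and 0.97 and 1.96 CPM in line 2, a fall of 3.20. Slc23a1, a vitamin C transporter, fell by 3.08, Dusp27 by 3.01, Adamts9, a secreted protease, by 2.87 and Hopx, a homeodomain-only protein, by 2.84. Lgals3, the lectin galectin-3, fell by 2.51, Gpa33 by 2.44 and Abca1, the cholesterol exporter, by 2.45. AU015836, Cbr3 (a carbonyl reductase) and Bnipl fell by 2.54, 2.36 and 2.14. Without line 2 replicate 2 the falls of Slc23a1, Gpa33, Cbr3 and Bnipl were 3.76, 3.13, 3.08 and 2.75, and without line 2 replicate 1 those of Slc23a1 and Cbr3 were 2.50 and 1.76. The libraries of the lines did not overlap at any of these genes, which the rule for naming them required.

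The noncoding genes with the strongest lower calls were small in size of change: Scarna2, a guide RNA of Cajal bodies, fell by 1.25, Gm13110 by 1.24, 2900097C17Rik by 0.79, 1110038B12Rik by 0.69 and Gm22133 by 0.67. The higher ones by the same rule, Rian, Meg3, Mirg, B830012L14Rik and Gm37899, all lie in the Dlk1-Dio3 domain. B830012L14Rik had 0 and 2 counts in line 1 and 358 and 219 in line 2, a ratio of 235 (counting interval 64.8 to 1946), and Gm37899 had 0 and 2 against 265 and 170, a ratio of 177 (48.8 to 1468). Away from chromosomes 1, 6, 8, 11 and X, the stretches with the lowest medians were the end of chromosome 15 from 100 Mb on (median -0.40, 35 of 64 genes lower and none higher) and chromosome 4 from 140 to 160 Mb (median -0.31, 100 of 271 lower and 13 higher). The former included Pou6f1, Fignl2 and Letmd1, which fell by 1.66, 1.62 and 1.28, and the latter the retinal reductase gene Dhrs3, which fell by 2.11, with Gm8178 and Tnfrsf8.

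Both lines carried the markers of their labelled cell type. Pou5f1 had 795 and 808 CPM in line 1 and 591 and 596 CPM in line 2. In bulk RNA, fewer cells of a type and less RNA per cell cannot be told apart. Of 14 tested genes of the core pluripotency list none rose and 11 fell, with a median of -0.49 against 0.00 for all genes, and the number of lower calls was 9 to 11 when any 1 library was left out. Pou5f1 itself fell by 0.43 (standard error 0.07, adjusted p = 0.000145). Sall4, a zinc finger partner of OCT4, fell by 0.69, and Fbxo15, a classic OCT4 and SOX2 target, had 92.3 and 92.8 CPM against 39.9 and 40.01 and fell by 1.21. Zscan10 fell by 0.59. Sox2 fell by 0.24 (adjusted p = 0.0103), a call that was lost without line 1 replicate 1, line 1 replicate 2 or line 2 replicate 1 (adjusted p 0.0730 to 0.139), with no filter on low counts (0.0600) and with scaling on genes off chromosomes 1, 6, 8 and 11 (0.0768).

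Naive pluripotency genes had calls in both directions. Of 22 tested, 7 rose and 9 fell. Of the 12 genes off chromosomes 1, 6, 8 and 11, 1 rose and 8 fell, with a median of -0.67, and the remaining 10 held 6 of the higher calls. Over all tested genes, 44.1% rose on those chromosomes and 11.1% elsewhere, while 5.70% and 23.4% fell. The higher calls of the list thus lean the same way as those of all genes, and the split was not tested. Zfp42, which codes for REX1 (chromosome 8), had 186 and 182 CPM in line 1 and 376 and 261 CPM in line 2, and rose by 0.79 (adjusted p = 8.58e-05). Nanog (chromosome 6) rose by 0.24, with 436 and 440 CPM against 546 and 490, and lost its call without line 1 replicate 1, line 1 replicate 2 or line 2 replicate 1 (adjusted p 0.0513 to 0.119). Dppa3 (Stella, chromosome 6) rose by 1.25, and by 0.76 without line 2 replicate 2. Falling genes included Jam2, with 173 and 174 CPM against 55.2 and 66.1 (a fall of 1.52), Dppa5a (1.19), Tbx3 (0.82) and Klf5 (0.73). Esrrb and Klf4 gave values of -0.02 and 0.00.

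Genes of the formative and primed states, which mark cells that leave the naive state, were lower on balance: 4 of 17 tested rose and 9 fell, with a median of -0.40. Otx2, the homeobox factor of the formative transition, had 67.5 and 69.2 CPM in line 1 and 18.3 and 21.6 CPM in line 2, and fell by 1.78 (standard error 0.14, adjusted p = 8.39e-08). Line 1 held the highest Otx2 of the uninduced groups; plain WT had 7.97 and 6.94 CPM and TRIM24-KO 3.61 and 4.65. Grhl2, Foxd3 and Lef1 fell by 1.71, 1.55 and 1.38. Etv4, an effector of FGF signalling, rose by 1.05. Cdh2, also on this list, rose by more than Otx2 fell, as given above with the genes named by size.

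**Figure D4:**
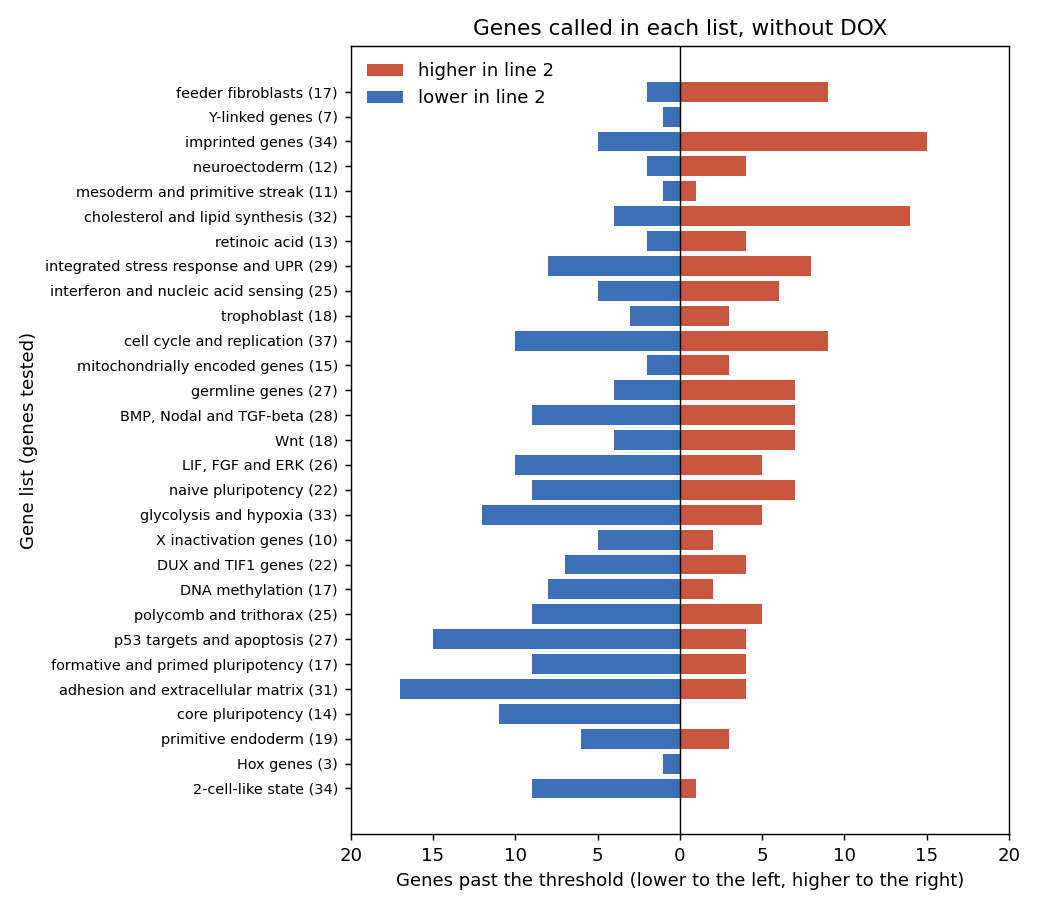
Genes past the threshold in each gene list without DOX (horizontal axis, higher in line 2 to the right in red, lower to the left in blue); the number of genes tested stands after each list name. Core pluripotency holds 11 lower and 0 higher genes, and imprinted genes hold 15 higher and 5 lower.

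DNA methylation genes had 2 higher and 8 lower members of 17 tested, with a median of -0.18; without line 2 replicate 2, and with scaling on genes off chromosomes 1, 6, 8 and 11, there were 4 higher and 7 lower. Dnmt3l, the cofactor of the de novo methyltransferases, had 327 and 323 CPM in line 1 and 131 and 139 CPM in line 2, and fell by 1.27 (standard error 0.09, adjusted p = 2.52e-08). Dnmt3b fell by 0.63 and Dnmt1, the maintenance enzyme, by 0.31. Zfp57, which guards imprints, fell by 0.41, and Tet1 and Tet2, which oxidise methylated cytosine, fell by 0.38 and 0.34. Plain WT had 235 and 243 CPM of Dnmt3l, between the lines. Polycomb and trithorax genes gave 5 higher and 9 lower of 25, with Kmt2d and Wdr5 falling by 0.51 and 0.52 and Ash2l rising by 0.57.

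Among the genes of the TIF1 family, to which TRIM24 and TRIM33 belong, differences had both signs. Trim24 rose by 0.89, as given with chromosome 6, and Trim66 rose by 1.13 from 1.31 and 1.48 CPM to 3.49 and 2.58 CPM, a call lost without line 1 replicate 1 or line 2 replicate 1. E2f6, a repressor of germline genes on the same list, rose by 0.99. Trim28, the corepressor of retroelements, fell by 0.38, and Trim33 fell by 0.24 (adjusted p = 0.00752), a call that was lost without line 1 replicate 1, line 1 replicate 2 or line 2 replicate 1 (adjusted p 0.0582 to 0.113), with no filter on low counts (0.0705) and with scaling on genes off chromosomes 1, 6, 8 and 11 (0.0544). Duxbl1 had 0.62 and 0.52 CPM in line 1 and 0.24 and 0.80 CPM in line 2 and was not called (adjusted p = 0.842). Dux (Duxf3) had 1 and 1 counts in line 1 and none in line 2, and Zfp352 1 to 3 counts in every library, all at or under the floor, so no fold is given. Of 22 tested genes of the list, which also holds other known repressors of the 2-cell state, 4 rose and 7 fell; leaving out line 1 replicate 1 or line 1 replicate 2, or scaling on genes off chromosomes 1, 6, 8 and 11, gave 4 lower calls.

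Transcripts of the 2-cell-like state, a rare state in such cultures, were scarce in both lines. Of 34 tested, 1 rose and 9 fell, and DESeq2 called 18 lower; without line 2 replicate 2 the count was 5. The 1 higher call, Zfp750, was lost without line 1 replicate 1, line 1 replicate 2 or line 2 replicate 2. Its rise in those fits was 0.56, 0.71 and 0.54. Zscan4c, of a family that marks this state, had 1.51 and 1.22 CPM in line 1 and 0.29 and 0.06 in line 2, and fell by 2.79 (standard error 0.72, adjusted p = 0.00536). That fall was 4.26 without line 2 replicate 1 and 2.17 without line 2 replicate 2. Zscan4d had 1.58 and 1.10 CPM against 0.29 and 0.31, and fell by 2.13 (adjusted p = 0.0294), a call lost without line 1 replicate 1, line 2 replicate 1 or line 2 replicate 2 (adjusted p 0.0745 to 0.148). The family's copies are near-identical, so reads may be split among them. Many members of the list had 3 counts or fewer in a library, and a fitted fold of such genes depends on the prior count, so no median is given. Dppa2 and Dppa4, activators of that state which are abundant here, fell by 0.55 and 0.52.

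Adhesion and extracellular matrix genes were lower in line 2 on balance, with 4 higher and 17 lower of 31 and a median of -0.43. Basement membrane components were among them: Lama5, a laminin chain, had 489 and 492 CPM in line 1 and 158 and 197 CPM in line 2 and fell by 1.47 (adjusted p = 5.94e-08). Hspg2 (perlecan) and Nid1 (nidogen) fell by 1.26 and 1.25. Itgb1, an integrin chain on chromosome 8, rose by 0.66. The higher calls went from 4 to 9 with scaling on genes off chromosomes 1, 6, 8 and 11, and to 7 with the replicate number as a block.

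Targets of p53 and apoptosis genes gave 4 higher and 15 lower of 27, a median of -0.34; without line 2 replicate 1 the lower calls were 9, and the higher calls were 1 without line 1 replicate 1 or line 2 replicate 2 and 2 without line 1 replicate 2. Bbc3 (PUMA), a killer protein of the BCL2 family, had 25.1 and 23.3 CPM in line 1 and 9.95 and 12.6 CPM in line 2 and fell by 1.11. Pmaip1 (NOXA) and Ei24 fell by 0.86 and 0.83, and Mcl1, a survival protein, by 0.79. Trp53 itself gave 0.09 (adjusted p = 0.316).

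Metabolic lists moved in separate ways. Glycolysis and hypoxia genes gave 5 higher and 12 lower of 33, led by Aldoa, the aldolase, with 1844 and 1873 CPM against 868 and 1070, a fall of 0.94; Eno1 and Pkm fell by 0.74 and 0.45, and Ldhb, on chromosome 6, rose by 0.90. The higher calls were 8 with scaling on genes off chromosomes 1, 6, 8 and 11. Genes of cholesterol and lipid synthesis gave 14 higher and 4 lower of 32, with a median of 0.15. Dhcr7 and Msmo1, enzymes of sterol synthesis, rose by 0.76 and 0.66, while the exporters Abca1 and Abcg1 fell by 2.45 and 1.25. Without line 2 replicate 2 the lower calls in that list were 7.

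Among signalling genes, those of LIF, FGF and ERK gave 5 higher and 10 lower of 26, those of BMP, Nodal and TGF-beta 7 and 9 of 28, and Wnt genes 7 and 4 of 18. Without line 1 replicate 1 the BMP list had 5 lower calls, and without line 2 replicate 1 it had 4 higher calls and the Wnt list 3. Interferon and nucleic acid sensing genes gave 6 higher and 5 lower of 25. Without line 1 replicate 1 these were 2 and 3, and the lower calls were 2 without line 1 replicate 2 or line 2 replicate 1. In that list Ifitm3, a membrane protein that blocks viral entry, had 104 and 103 CPM in line 1 and 24.2 and 27.7 CPM in line 2 and fell by 2.00 (adjusted p = 1.16e-09).

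Markers of other cell types were also measured. Feeder fibroblast markers gave 9 higher and 2 lower of 17 tested with a median of 0.64. Of the 9 tested markers off chromosomes 1, 6, 8 and 11, 3 rose and 1 fell, with a median of 0.45. The summed CPM of the tested members was 1775 and 1810 in line 1 and 2223 and 2113 in line 2. Most of that sum was Fn1, which was not called (adjusted p = 0.0597). Thy1, a surface marker of fibroblasts, had 6.25 and 6.38 CPM against 20.1 and 15.1 and rose by 1.48, and Col5a2 and Cald1 rose by 2.74 (3.40 without line 1 replicate 2) and 1.38. Col1a1 rose by 1.08, from 1.79 and 1.48 CPM to 4.61 and 2.15. Col1a2, in the first 40 Mb of chromosome 6, was called higher with 1 and 0 counts against 12 and 13, a ratio of 20.4 (counting interval 3.34 to 837). The 2 markers called lower are not among those named here. Of the list, 7 of the 28 genes were at 0 in all 4 libraries. Primitive endoderm markers gave 3 higher and 6 lower of 19, trophoblast 3 and 3 of 18, neuroectoderm 4 and 2 of 12, and mesoderm 1 and 1 of 11. The lower feeder calls were 0 without line 2 replicate 1 and 1 without each of the other libraries. The higher mesoderm calls were 2 without line 1 replicate 1 and 0 without line 2 replicate 1, and the lower neuroectoderm calls were 1 without line 1 replicate 1. The part of feeder RNA in the differences was not tested.

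Sex-linked genes varied within the lines. Ddx3y, on the Y chromosome, had 11.5 and 48.3 CPM in line 1 and 36.6 and 57.7 CPM in line 2, and Uty had 5.15 and 32.7 CPM against 19.9 and 28.2. Of 7 Y-linked genes tested, Uba1y was called (a fall of 1.59), and it lost the call without line 1 replicate 2 or line 2 replicate 1 (adjusted p 0.337 and 0.129). The list had 0 higher and 1 lower call, but 2 higher and 0 lower without line 1 replicate 2, and 1 of each with the replicate number as a block. Xist had 4 and 5 counts in line 1 and 1 and 0 in line 2, a ratio of 0.0906 with a counting interval of 0.0021 to 0.65. It was called lower (adjusted p = 0.0264), but not with DESeq2 (0.0968) nor when any 1 of the 4 libraries was left out (0.0566 to 0.127).

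Repeat subfamilies were counted in the same tables, summed over all genomic copies. Of 965 tested, 80 (8.29%) were higher in line 2 and 33 (3.42%) lower, with a median of 0.16. The excess of higher calls was not stable: there were 20 higher and 19 lower without line 2 replicate 1, 25 and 21 without line 1 replicate 1, 30 and 23 without line 1 replicate 2, 109 and 26 without line 2 replicate 2, and 162 and 31 with scaling on genes off chromosomes 1, 6, 8 and 11. The higher ones with the smallest p had small fold changes: MER2, a DNA transposon, rose by 0.36, MER5A by 0.38, MTD-int by 0.38 and L1M4, an old LINE, by 0.40. URR1A, L1MA6 and RCHARR1 rose by 0.33, 0.43 and 0.37, and RLTR33 by 0.81. By class, 21 of 35 SINE subfamilies rose and none fell, 12 of 16 in the Alu family (mouse B1) among them. DNA transposons gave 11 higher and none lower of 171, a smaller higher share than the 8.29% over all subfamilies. LINE elements gave 24 higher and 4 lower of 150, and LTR elements 23 higher and 28 lower of 578. Class counts were made for the main fit alone.

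The lower repeats named by the same rule had log2 fold changes from -2.02 to -0.59. The L1 family as a whole gave 22 higher and 4 lower of 127, so the falling L1 subfamilies are the minority of its calls. L1Md_A, a young LINE-1 subfamily that still holds mobile copies, had 811 and 792 CPM in line 1 and 281 and 231 CPM in line 2, and fell by 1.64 (standard error 0.21, adjusted p = 0.000134). L1Md_Gf fell by 1.37, from 142 and 148 CPM to 62.2 and 49.8. L1Md_T, with 2208 and 2238 CPM against 956 and 747, fell by 1.38 (adjusted p = 0.0351), a call that DESeq2 did not make (0.0562) and that was lost without any of the 4 libraries (0.103 to 0.135). Among endogenous retroviruses, RLTR45-int fell by 2.02, MMERVK9C_I-int by 1.06, MMERVK9E_I-int by 1.04, IAP1-MM_I-int by 1.31 and MMERGLN-int by 1.00. The ERVK family gave 20 lower and 7 higher of 271. The entry 7SK, copies of a small nuclear RNA that restrains transcription elongation, fell by 0.59.

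Several well-known repeats were not called. MERVL-int, the retrovirus of the 2-cell stage, had 137 and 132 CPM in line 1 and 102 and 91.4 CPM in line 2 (log2 fold change -0.48, adjusted p = 0.0601). It passed the threshold with the 4 compared libraries alone (0.00253), with the 8 libraries without DOX (0.00848) and with no filter on low counts (1.01e-19). Its promoter repeat MT2_Mm gave -0.35 (adjusted p = 0.183), IAPEz-int -0.10 (0.649) and the major satellite GSAT_MM -0.78 (0.108). With the 4 compared libraries alone MT2_Mm (0.0394) and GSAT_MM (0.0124) passed, both passed with no filter on low counts (3.9e-06 and 1.7e-05), and GSAT_MM passed with the 8 libraries without DOX (0.00567). The number of repeats called ranged from 39 to 135 when 1 of the 4 libraries was left out: 46 without line 1 replicate 1, 53 without line 1 replicate 2, 39 without line 2 replicate 1 and 135 without line 2 replicate 2.

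**Figure D5:**
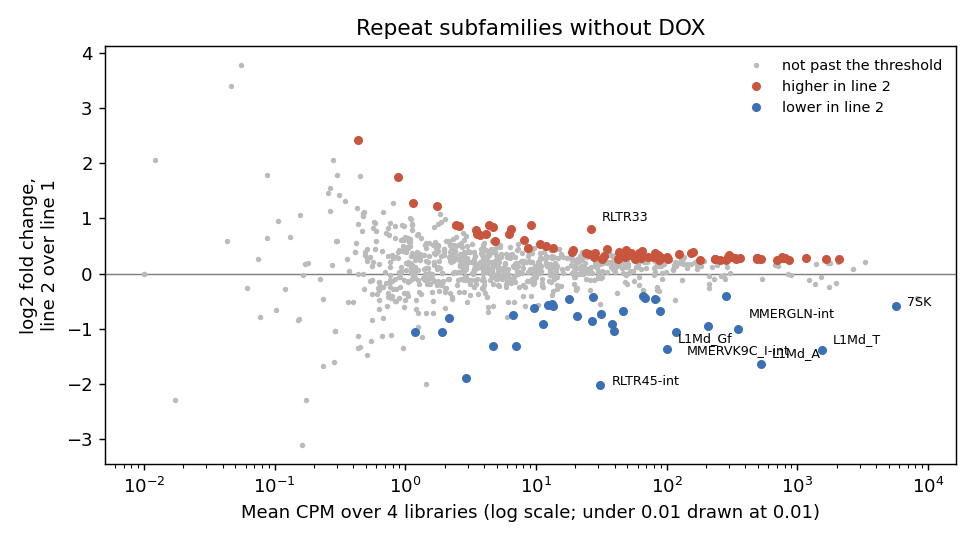
Log2 fold change of repeat subfamilies (vertical axis, line 2 over line 1) against their mean CPM over the 4 libraries (horizontal axis, log scale), without DOX; red points are called higher, blue points called lower, grey points not called. Most red points sit below 1 on the log2 scale, and the lower calls include L1Md_A, L1Md_Gf and RLTR45-int at -1.64, -1.37 and -2.02.

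The gene differences between the lines were largely there with DOX as well. In those 4 libraries 7220 genes (39.9%) differed, and 5014 were called in both states in the same direction, which is 72.8% of the genes called without DOX and 69.4% of those called with it; 38 were called in opposite directions. Meg3 differed by 6.86 with DOX, Peg10 by 7.53, Mest by 7.19, Nod1 by -5.44, Otx2 by -1.74 and Dnmt3l by -1.33. The interaction, which is the difference between the lines with DOX minus that without it, was called for 44 genes (0.243%), 34 above 0 and 10 below. It was called for 9 genes without line 1 replicate 1, 11 without line 1 replicate 2 and 20 without line 2 replicate 1, 16 and 35 without line 1 replicate 1 or 2 with DOX, and 25 and 75 without line 2 replicate 1 or 2 with DOX. The interaction fit treats libraries with and without DOX as independent, but deviations of same-numbered libraries correlated at 0.42 across DOX in line 2 (0.04 in line 1).

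Zscan4c and Zscan4d were among those 44 genes: lower in line 2 before induction, they were higher there with DOX, by 1.51 and 2.18. With DOX 527 of the 965 subfamilies differed; of the 33 lower ones without DOX, 9 were lower and 11 higher with it, and of the 80 higher ones 70 were higher. L1Md_A, 1.64 lower without DOX, gave -0.06 with it (adjusted p = 0.805). MERVL-int was 1.502 higher in line 2 with DOX, and repeats then took 19.3% and 17.3% of all counts in line 2 against 11.8% and 11.999% in line 1.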

How the data were processed

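The deposited tables hold whole-number counts per gene and per repeat subfamily, which the authors made from strand-specific paired reads, per the file headers and the labels' protocols. The submitters' processing notes name bcl2fastq 2.20.0, cutadapt 1.18, STAR 2.7.6a and the build mm10; how reads with several matches were counted, and with which tool, is not given in the sources used here. Groups were taken from the titles. Title and treatment tag differ for the pLV2 WT libraries titled with DOX and for the TRIM24-KO and TRIM33-KO libraries titled without it, so the comparisons that use them rest on the titles; they do not differ for the 4 compared here.

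Gene IDs were matched to the GENCODE annotation of GRCm38 (54435 of 55487 with version, 792 without). The 16 libraries with pLV2 in their titles (8 groups of 2) were fitted together with edgeR 4.0.16 (R 4.3.3): filterByExpr, TMM factors from gene counts, glmQLFit and glmQLFTest, 2-sided, Benjamini-Hochberg adjustment over all genes, or over all repeats, per contrast, with a threshold of 0.05. The coefficient of variation from the common dispersion was 8.73%. CPM (counts scaled to the library), computed here, used the effective library sizes and compares 1 gene across libraries, not genes with each other. The method was tested on simulated data for this comparison: with 17400 genes, it called 94% to 100% of those changed by 1 or 2 on the log2 scale and 0.0872% of those unchanged. The simulation changed 50 genes at each size and direction, all with an expected count of at least 50, and shifted no whole chromosome. Its rates therefore do not cover genes with few counts, or data in which many genes or whole chromosomes differ. Intervals and the floor of 3 counts cover counting error only.

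Alternatives were RLE factors, DESeq2 1.42.0, other filters and library sizes, a replicate block, fewer libraries, the fit without CT010467.1, and each library left out. Scaling on genes off chromosomes 1, 6, 8 and 11, leaving out the genes of those chromosomes, and a crossed replicate block were chosen after seeing the data. The members, the gene lists and the tests were chosen with earlier results of these data known. Named genes were the 12 higher and 12 lower coding genes with the largest change among those called with a mean of at least 5 CPM and no overlap, up to 3 called genes per list plus those that define it, a fixed set, 5 noncoding genes and 8 repeats each way by p, and the top 3 genes of each named 20 Mb window. Further list members named in the text were chosen after their values were seen.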

Additional observations from a re-analysis of the deposited data

Results flagged for a closer look

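The difference between the lines itself changed with DOX for 44 genes, tested as an interaction (the log2 difference between line 2 and line 1 with DOX minus that without). Zscan4c and Zscan4d had interactions of 4.31 and 4.31. Among the named repeats the interaction was 0.46 for MMERVK9C_I-int, 0.85 for L1Md_Gf, 1.74 for RLTR45-int, 1.58 for L1Md_A, 0.73 for IAP1-MM_I-int, 1.83 for MMERVK9E_I-int and 0.41 for 7SK. It was 1.51 for GSAT_MM, 0.88 for IAPEz-int, 1.98 for MERVL-int and 1.66 for MT2_Mm, which were not called without DOX. All of these had an adjusted p under 0.05 for the interaction, and each is a rise of line 2 relative to line 1 after DOX. The 8 higher repeats named above, L1Md_T and MMERGLN-int did not pass. How many of all 965 subfamilies passed is not given here, so these values do not show whether the named repeats stand out.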

How the results depend on the processing

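The count of genes that differed stayed within 1.5 times of 6886 under each alternative run. With 1 library left out it ranged from 4685 to 6279, that of differences of at least 1 from 1302 to 1935, that with DOX from 5079 to 6128 and that of calls shared with DOX from 3853 to 4715. Fits without a library leave a line with 1, whose spread is then assumed to be that of the other groups. The shared calls numbered 3339 with chromosomes 1, 6, 8 and 11 left out, since fewer genes are counted. Repeats called moved from 113 to 248 with no filter on low counts, 193 with the 8 libraries of the same treatment, 173 with the compared libraries alone, 193 with scaling on genes off chromosomes 1, 6, 8 and 11, and 39 to 135 with 1 library left out. Interaction genes moved from 44 to 104 with DESeq2, 240 with no filter and 9 to 75 with 1 library left out. The cause of these shifts was not tested. Duxbl1, not called, went from -0.20 to 0.52 without line 2 replicate 1 and to -1.16 without line 2 replicate 2. With the replicate number as a block the counts were 7034 genes, 1750 by at least 1, 111 repeats, 7301 with DOX, 42 interactions and 5149 shared. The numbers do not pair the compared lines: deviations of same-numbered libraries correlated at -0.01 between the lines without DOX. Within a line, across DOX, they correlated at 0.42 in line 2 and 0.04 in line 1. With DOX the lines correlated at -0.17, and a crossed block gave 7198 genes. Of 138 named genes and repeats, 25 changed call or direction under some alternative, and the median of 8 of 29 lists and 8 of 20 chromosomes changed sign. Depth limits what can be said of genes with few counts, such as Dux, Zfp352 and most 2-cell transcripts.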
